A study of Homo sapiens with 4 samples.

Results

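The 37 genes of the human mitochondrial genome were examined in the total RNA of extracellular vesicles (EVs) of PC3, an established line of human prostate cancer cells that was grown from a metastasis in bone. The members are the 13 mRNA, 2 rRNA and 22 tRNA genes that GENCODE release 44 places on chromosome M of GRCh38 under symbols starting with MT-, out of 58051 genes in the count tables, and all 37 were matched by Ensembl identifier. The EVs were isolated on qEV size exclusion columns, with the exoEasy Maxi membrane kit also named in the methods, from cells of this single line kept in vesicle-depleted fetal bovine serum, and stranded total RNA libraries were sequenced as 2 biological replicates of this 1 condition, so there is no group to compare them with. The titles of both total RNA samples carry the mark EX1, with REP1 and REP2, while their descriptions carry EX1 and EX2. Whether they are separate EV preparations thus rests on the descriptions and the methods, and each SD here may be partly technical. Whether bovine RNA left in the serum gave reads on the mitochondrial genes was not tested. The small RNA libraries of the same series list mature miRNAs and were not used. In a bulk sample of EVs, fewer vesicles that carry an RNA and less of it in each vesicle cannot be told apart. A gene counts as identified where each of the replicates holds 1 read or more of it. Levels are given in CPM, the count per 1000000 reads counted on genes, and compared between genes only as CPM per kilobase of gene. Because the strand setting of the counting is not known, every count and level below may be of RNA antisense to the gene named.

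The mitochondrial genome is a circle that is transcribed from both of its strands into long precursors. The tRNA genes sit between most of the others, and their excision by RNase P and ELAC2 releases the mRNAs and rRNAs. The mRNAs encode core subunits of complexes I, III, IV and V of oxidative phosphorylation, the rRNAs form the mitochondrial ribosome and the tRNAs read its codons. Most genes are written on the plus strand of the reference, which matches the RNA transcribed from the heavy strand. The mRNA gene MT-ND6 and 8 of the tRNA genes are written on the minus strand.

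Of 489170 reads counted on genes in replicate 1, 61074 lay on mitochondrial genes, and of 475942 in replicate 2 it was 65298. This was 12.5% (95% Wilson interval 12.4 to 12.6%) and 13.7% (13.6 to 13.8%) of the gene counts, a mean of 13.1% ± 0.873 (SD, n = 2). Intervals here cover counting error only, since amplified reads are not independent molecules. They are too narrow if reads were counted in pairs, which was not tested. The gene counts were 2.50% and 2.16% of all reads in the files, and 45.5% and 48.1% of all reads had been set aside because they aligned to more than 1 place. Of markers listed for the cell line, KRT8 had 966 and 1088 reads and KRT18 had 94 and 87, while KLK3, which PC3 cells lack, had no read. Over all protein-coding genes 21.9% were identified and 11.6% had at least 10 reads in both replicates. These markers therefore do not test which line the cells were, since most genes were not identified. Of 5 genes of vesicle proteins 3 were identified, CD63, CD81 and PDCD6IP, and no read was counted on CD9. Among these 5, 1 had at least 10 reads in both, CD81. Of 4 markers of other cells, COL1A1 was identified with 35 and 1 reads, PECAM1 had 0 and 44, and PTPRC and ALB had none.

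The mRNA genes held most of the mitochondrial reads, the tRNA genes few and the rRNA genes almost none. The 13 mRNA genes took 93.2% ± 0.739 (SD, n = 2) of the mitochondrial counts, the 22 tRNA genes 6.49% ± 0.773 (SD, n = 2) and the 2 rRNA genes 0.289% ± 0.0338 (SD, n = 2). All 13 mRNA genes were identified, against 21.9% of 19629 protein-coding genes, and all 13 had at least 10 reads in both replicates, against 11.6%. Of all 37 members 28 were identified, against 9.63% of the genes of the table. The remaining 9 were 8 tRNA genes and MT-RNR1. The 13 mRNA genes held 20.7% ± 1.68 (SD, n = 2) of the counts on protein-coding genes. By count, 6 of the 10 genes with the most reads in the table were mitochondrial, and MT-ND5 ranked 4. Ranked per kilobase of exon, they were 13 of the first 14 protein-coding genes. Per kilobase, summed over the genes of a class, the mRNA genes had 10271 and 11161 CPM in replicates 1 and 2, the tRNA genes 4924 and 6405, and the rRNA genes 155 and 145. The level counted on the mRNA genes was thus 66.1 and 77.2 times that on the rRNA genes.

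MT-ND6 (ENSG00000198695, chrM:14149-14673), a membrane subunit of complex I and the mRNA gene on the minus strand, had the highest level of the mRNA genes. It had 6776 reads in replicate 1 and 8420 in replicate 2, or 26385 and 33698 CPM per kilobase. MT-ND5 (ENSG00000198786, chrM:12337-14148), also a membrane subunit of complex I, had the most reads of any member, 16056 and 16173, or 18114 and 18753 CPM per kilobase, and both values lay below both of MT-ND6. The lowest of the mRNA genes were MT-ND1 (chrM:3307-4262) with 1653 and 2005 reads and MT-ND2 (chrM:4470-5511) with 1859 and 2065, which also encode complex I subunits. The genes of a single complex therefore stood at both ends of the order, and the 7 genes of complex I held 61.1% ± 0.211 (SD, n = 2) of the mitochondrial reads. MT-ND1 had 3535 and 4407 CPM per kilobase and MT-ND2 had 3647 and 4164, so that the ranges of these neighbours overlapped.

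Between these ends, the order of mean levels was MT-CO3, MT-ND4, MT-CO2, MT-ND3, MT-CYB, MT-ND4L, MT-ATP6, MT-ATP8 and MT-CO1. Of the 12 pairs of neighbours in the whole order, 7 had replicate values that did not overlap and 5 had values that did. The overlapping neighbours were MT-CO3 and MT-ND4, MT-ND3 and MT-CYB, MT-ND4L and MT-ATP6, MT-ATP6 and MT-ATP8, and MT-ND1 and MT-ND2. With 2 replicates, no test of this order was made. MT-CO1, MT-CO2 and MT-CO3 encode the core of cytochrome c oxidase, complex IV. MT-CO3 had 4835 and 4949 reads, or 12607 and 13263 CPM per kilobase, MT-CO2 had 3310 and 3276 reads, or 9893 and 10063, and MT-CO1 had 4250 and 4480 reads, or 5634 and 6104. The level of MT-CO3 was 2.24 and 2.17 times that of MT-CO1. MT-CYB, which encodes cytochrome b of complex III, had 4839 and 4755 reads, or 8670 and 8756 CPM per kilobase. MT-ND4 had 8491 and 8676 reads, or 12597 and 13229 CPM per kilobase, and MT-ND3 had 1341 and 1628, or 7923 and 9886. Both encode complex I subunits.

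**Figure D1:**
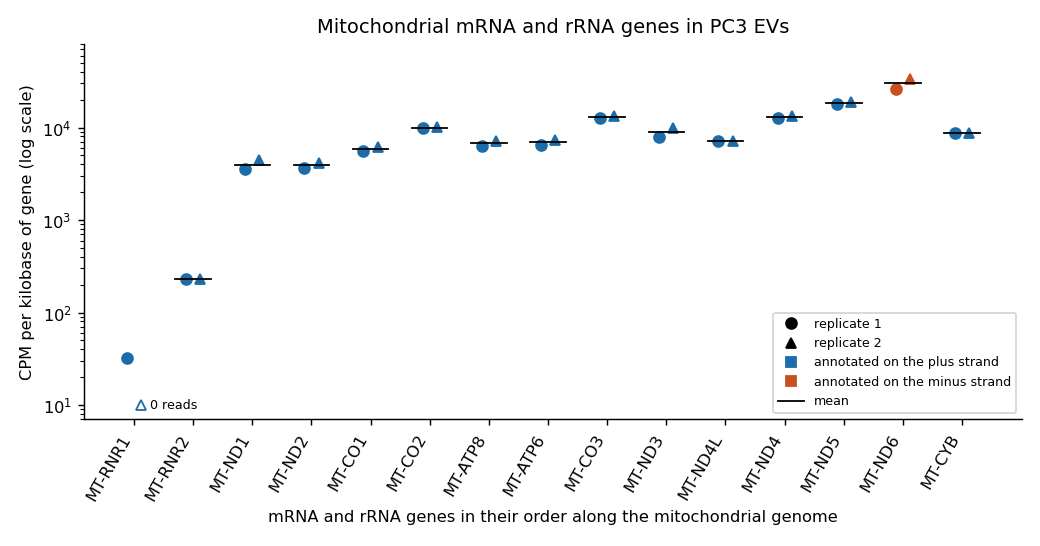
Level of each mitochondrial mRNA and rRNA gene in CPM per kilobase (log axis), in the order of the genes along the genome. Circles are replicate 1, triangles replicate 2 and lines the mean of both, with MT-ND6, on the minus strand, at 26385 and 33698 above all others, MT-RNR2 at 231 and 233, and MT-RNR1 with 0 reads in replicate 2 drawn as an open triangle at the bottom.

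Some mRNA genes share bases with a neighbour on the same strand. The reading frame of MT-ATP8 ends 46 bases inside that of MT-ATP6, and that of MT-ND4L ends 7 bases inside that of MT-ND4. The stretches are shown because HTSeq, in its default mode, sets a read that lies on 2 genes of a strand aside as ambiguous. The mode used here is not given in the sources used here. The first is chrM:8507-8592 and the second chrM:10740-10786, both on the plus strand of GRCh38, with the shared bases in capitals.
MT-ATP8 and MT-ATP6: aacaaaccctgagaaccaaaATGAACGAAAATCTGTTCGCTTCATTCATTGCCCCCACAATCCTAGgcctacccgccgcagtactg
MT-ND4L and MT-ND4: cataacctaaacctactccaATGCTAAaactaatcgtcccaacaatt

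MT-ATP8 and MT-ATP6 encode the mitochondrial subunits of the ATP synthase, complex V. MT-ATP8 had 639 and 709 reads and MT-ATP6 had 2162 and 2374. Per kilobase this was 6311 and 7197 CPM against 6490.1 and 7325, a ratio of MT-ATP6 to MT-ATP8 of 1.03 and 1.02 over the annotated lengths. The order of this pair depended on the length used. Over the bases not shared with another gene of the strand, the mean level was 8683 CPM per kilobase for MT-ATP8 and 7419 for MT-ATP6, and over the length without nuclear copies it was 7359 and 12954. MT-ND4L had 1040 and 1018 reads, or 7158 and 7202 CPM per kilobase, and MT-ND4 was at 1.76 and 1.84 times that level.

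MT-ND6 stood above its neighbours on the genome as well as above the mean of the mRNA genes. Its level was 2.78 times that of the 12 plus-strand mRNA genes, summed, in replicate 1 and 3.35 times in replicate 2, a mean ratio of 3.06 ± 0.400 (SD, n = 2). Against MT-ND5 and MT-CYB, which flank it on the other strand, the ratio was 1.82 and 2.26. MT-ND5 and MT-ND6 meet with their 3′ ends, and MT-ND6 begins at the base after the last of MT-ND5. The boundary is shown for chrM:14119-14178 on the plus strand of GRCh38, with the bases of MT-ND6, which is read from the other strand, in capitals.
MT-ND5 and MT-ND6: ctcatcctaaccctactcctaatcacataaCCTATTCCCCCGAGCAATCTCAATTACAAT

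The library kit keeps the strand of the RNA, but the strand setting of the counting is not given in the sources used here. If it was the opposite of that of the kit, the reads counted on a gene would be RNA of the other strand, so for every member RNA of the gene and RNA antisense to it cannot be told apart. Outside the mitochondrial genome, VIM had 130 and 87 reads, and VIM-AS1, on the opposite strand at the same locus, had 1958 and 2209. Of all reads, 36.3% and 35.4% were set aside as lying on no gene under the setting used. Which setting this was has not been tested.

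Along the genome, the plus-strand mRNA genes with higher start coordinates tended to have higher levels. Across these 12 genes, the Spearman correlation of start and CPM per kilobase was 0.755 in replicate 1 and 0.699 in replicate 2, given as a description, since the genes share the library and their precursor. With gene length it was 0.231 and 0.196, and with GC content 0.154 and 0.168. The relation to the start was weaker, 0.483 and 0.350, when each gene's length was reduced to the part without copies in the nuclear genome.

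Copies of mitochondrial sequence in the nuclear genome were searched for, because reads that did not align uniquely were set aside. Whether such copies changed these levels was not tested. Of all 50-base windows of the mitochondrial genome 23.8% had an exact copy elsewhere in GRCh38, and of the 75-base windows 14.4%. The share of 50-base windows was 50.6% for MT-CO1, 46.7% for MT-ATP6, 43.6% for MT-ND2, 30.9% for MT-CO3, 28.98% for MT-CO2 and 25.6% for MT-ND1. It was 19.96% for MT-ND6 and 4.76% for MT-ND5, and no window of MT-ND3 or MT-ND4L had a copy. Reducing lengths by these shares treats a copied 50-base window as one where no read was counted, which was not tested. Over 75-base windows the share was 36.6% for MT-CO1 and 10.5% for MT-CO2. The tRNA gene MT-TS1, with all its 50-base windows copied, had 1386 and 1964 reads. With lengths reduced by the 50-base shares, MT-CO1 moved from place 11 to place 7 of the 13 mRNA genes with 11890.0 CPM per kilobase, and MT-ATP6 from place 9 to place 6 with 12954. MT-ND6 and MT-ND5 kept the first places with 37532 and 19356 CPM per kilobase, and MT-ND1 and MT-ND2 were the lowest. The middle of the order therefore changed with the length used, while MT-CO3 kept place 3 and the lowest pair held the same genes.

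Few reads were counted on the nuclear copies themselves. Of 399 annotated nuclear pseudogenes of mitochondrial genes in the table, 8 were identified, and all 399 together had 771 and 649 reads. MTATP6P1 on chromosome 1 had 327 and 330 reads and MTND2P28, also on chromosome 1, had 337 and 269. MTCO1P12 had 44 and 13 reads and MTND4P12 on chromosome 5 had 20 and 12. The other pseudogenes did not reach 10 reads in both replicates.

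The rRNA genes had low levels, and MT-RNR1 was near the detection limit. MT-RNR2, which encodes the rRNA of the large mitochondrial subunit, had 176 and 173 reads over 1559 bases, or 231 and 233 CPM per kilobase. MT-RNR1, which encodes the rRNA of the small subunit, had 15 reads in replicate 1 and 0 in replicate 2 over 954 bases. The count of 0 allows a share of up to 0.000630% of the gene counts, taken as 3 reads. The level of MT-ND5 was 78.5 and 80.4 times that of MT-RNR2. Nuclear copies covered 15.7% of the windows of MT-RNR2 and 43.6% of those of MT-RNR1. The part of these copies in the rRNA counts was not tested. The sources name the library kit, TruSeq Stranded, but do not spell out an rRNA removal step, whose part was not tested either.

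The tRNA genes divided by strand. All 8 minus-strand tRNA genes had at least 89 reads in replicate 1 and 120 in replicate 2, and together they held 3290 and 4383 reads. The 14 plus-strand tRNA genes held 342 and 214, and none of them had more than 80 reads in either replicate. Every minus-strand gene was thus above every plus-strand gene in each replicate. With MT-ND6, the 9 minus-strand genes held 18.04% ± 2.21 (SD, n = 2) of the mitochondrial reads. Per kilobase, the minus-strand tRNA genes were at 16.7 times the level of the plus-strand ones in replicate 1 and 35.5 times in replicate 2.

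The sequences of the tRNAs with the most reads are shown with a pair of plus-strand tRNAs for comparison, MT-TK with a moderate count and MT-TH with none. They are read 5′ to 3′ from the strand of the gene on GRCh38, as DNA, and the anticodon is in capitals. MT-TS1, the serine tRNA for UCN codons, lies at chrM:7446-7514 on the minus strand, MT-TN, for asparagine, at chrM:5657-5729 on the minus strand, and MT-TC, for cysteine, at chrM:5761-5826 on the minus strand. MT-TP, for proline, lies at chrM:15956-16023 on the minus strand, MT-TY, for tyrosine, at chrM:5826-5891 on the minus strand, MT-TK, for lysine, at chrM:8295-8364 on the plus strand and MT-TH, for histidine, at chrM:12138-12206 on the plus strand.
MT-TS1: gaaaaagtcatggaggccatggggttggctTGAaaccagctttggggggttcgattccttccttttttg
MT-TN: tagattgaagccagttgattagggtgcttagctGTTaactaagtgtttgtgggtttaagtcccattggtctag
MT-TC: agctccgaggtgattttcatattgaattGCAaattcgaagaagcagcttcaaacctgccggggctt
MT-TP: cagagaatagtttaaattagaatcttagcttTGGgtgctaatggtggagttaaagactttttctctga
MT-TY: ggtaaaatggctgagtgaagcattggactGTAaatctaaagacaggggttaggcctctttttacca
MT-TK: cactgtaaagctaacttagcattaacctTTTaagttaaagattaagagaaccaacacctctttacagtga
MT-TH: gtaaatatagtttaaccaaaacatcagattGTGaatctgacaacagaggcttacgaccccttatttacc

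MT-TS1 had 1386 reads in replicate 1 and 1964 in replicate 2, or 41063 and 59805 CPM per kilobase, more than MT-ND6 in each replicate. MT-TN followed with 605 and 615 reads, MT-TC with 329 and 609, MT-TP with 390 and 428 and MT-TY with 281 and 395. Per kilobase, MT-TN, MT-TC, MT-TP and MT-TY lay between 8704 and 19387 CPM, and each overlapped the next in the order. MT-TE, for glutamate, had 110 and 123 reads, MT-TQ, for glutamine, 100 and 129, and MT-TA, for alanine, 89 and 120, and their ranges overlapped each other too. MT-TS1 lies opposite the gap between MT-CO1 and MT-TD, and MT-TA, MT-TN, MT-TC and MT-TY lie in a row between MT-TW and MT-CO1, where the origin of light-strand replication is found. The 8 minus-strand tRNAs therefore differed among themselves, with the first above the next by more than the spread between replicates.

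The plus-strand tRNA genes fell into those with a free side and those without. MT-TV, MT-TL1, MT-TG, MT-TR, MT-TH, MT-TS2 and MT-TL2 have another plus-strand gene within 10 bases on both sides, and no read was counted on 6 of these 7, while MT-TL1 had 0 and 1. The other 7 have such a gene on at most 1 side. MT-TI, for isoleucine, had 43 and 59 reads, MT-TK 57 and 52, MT-TT, for threonine, 62 and 33, and MT-TD, for aspartate, 63 and 30. MT-TW, for tryptophan, had 80 and 21 reads, MT-TM, for methionine, 37 and 7, and MT-TF, for phenylalanine, 0 and 11. The tRNA genes are 59 to 75 bases long, and in the default mode of HTSeq a read that reaches into the next gene of the same strand is set aside. All reads set aside as ambiguous, over the whole genome, were 118736 and 150525.

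None of the minus-strand tRNA genes has a same-strand neighbour on both sides. Among tRNA genes with such a neighbour on at most 1 side, the minus-strand genes were at 12184 and 16683 CPM per kilobase and the plus-strand genes at 1457 and 932, a ratio of 8.37 and 17.9. The read counts of these 8 and 7 genes did not overlap in either replicate. The 3 minus-strand genes with no neighbour within 10 bases on either side, MT-TQ, MT-TS1 and MT-TP, had from 100 to 1964 reads. This grouping was chosen after the counts had been seen. The part of the neighbours in the counts was not tested beyond these values.

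Nuclear copies did not order the tRNA genes in the same way. All 50-base windows of MT-TS1, MT-TN, MT-TE, MT-TQ and MT-TA had a copy in the nuclear genome, as had those of the plus-strand genes MT-TK and MT-TW, while no window of MT-TP, MT-TI or MT-TT had one. MT-TS1 thus had the most reads of the tRNA genes with copies over its whole length, and MT-TG, MT-TS2, MT-TL1 and MT-TL2 had at most 1 read with none. The part of the copies in the tRNA counts was not tested beyond these values.

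**Figure D2:**
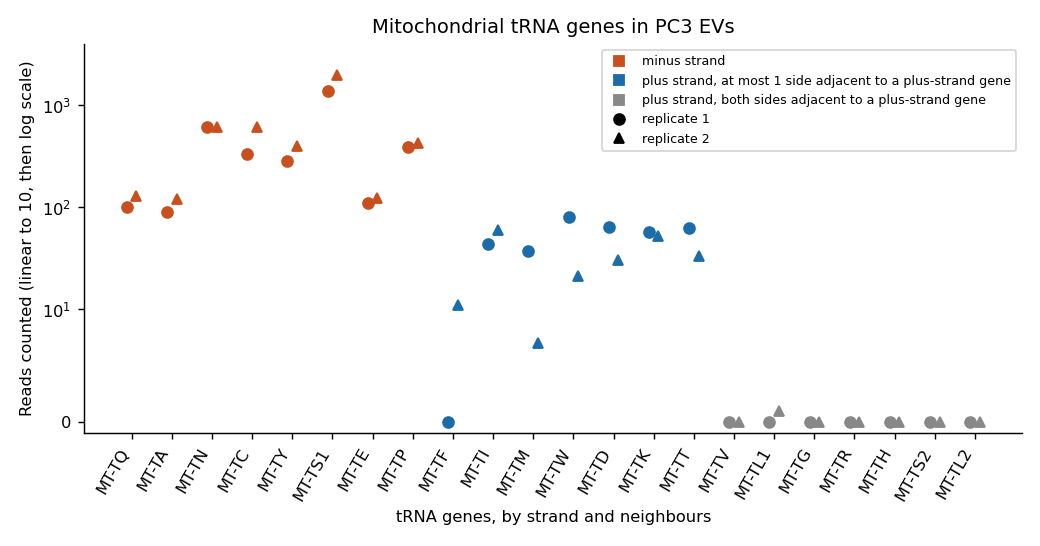
Reads counted on each of the 22 mitochondrial tRNA genes (axis linear to 10, then log), circles for replicate 1 and triangles for replicate 2. The 8 minus-strand genes lie from 89 to 1964 reads, the 7 plus-strand genes with a same-strand neighbour on at most 1 side from 0 to 80, and the 7 with such a neighbour on both sides at 0 or 1.

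The spread between the replicates was small for the mRNA genes and larger for the tRNA genes. The log2 difference between replicate 2 and replicate 1, with a pseudocount of 0.5 reads, ranged from 0.01 for MT-ND4L to 0.35 for MT-ND6 over the 13 mRNA genes, and its median was 0.12. All 13 were within 0.5 in size, and all had at least 1000 reads summed over both replicates. Of the 39 other genes at that depth 36 were within 0.5 too, or 92.3%. Among genes with at least 1000 reads summed, the median size of the difference was 0.12 for 15 members and 0.21 for 39 other genes. The 8 minus-strand tRNA genes ranged from 0.06 for MT-TN to 0.93 for MT-TC, and the 7 plus-strand ones with at least 10 reads summed from -2.28 to 4.56, the last for MT-TF.

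These differences were compared with counting error alone by an exact two-sided binomial test per gene, which compares the libraries and no condition. The test takes reads as independent draws. Every count of the listed nuclear genes of complexes III and IV was even, so reads may have been counted in pairs, which was not tested. If they were, the p-values are too small and too many genes pass. With Benjamini-Hochberg adjustment over 7581 genes with at least 10 reads summed, 64.8% of the genes differed between the replicates, and 54.5% of those with at least 100 reads. Of the 30 members tested 20 differed, a share near that of all genes in this setting. The 10 mRNA genes among them were all higher in replicate 2, but when the library total left out the 7SL genes and RPS29, 3 of the 13 mRNA genes were lower there. MT-ND6 had the smallest p of the members (exact binomial p = 4.31e-51, adjusted p = 6.54e-48), at 0.35 on the log2 scale. MT-ND4L, MT-CO2 and MT-CYB did not pass the threshold, with exact binomial adjusted p of 0.922, 0.561 and 0.694 and log2 differences of 0.01, 0.02 and 0.01. Among tRNA genes, MT-TS1 differed by 0.54 (exact binomial adjusted p = 1.96e-24) and MT-TC by 0.93 (exact binomial adjusted p = 2.24e-19), both with more reads in replicate 2. MT-RNR2 differed by 0.01 (exact binomial adjusted p = 0.981). MT-RNR1, with 15 and 0 reads, differed by -4.91 (exact binomial adjusted p = 0.00019), the largest size of difference among the members tested.

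**Figure D3:**
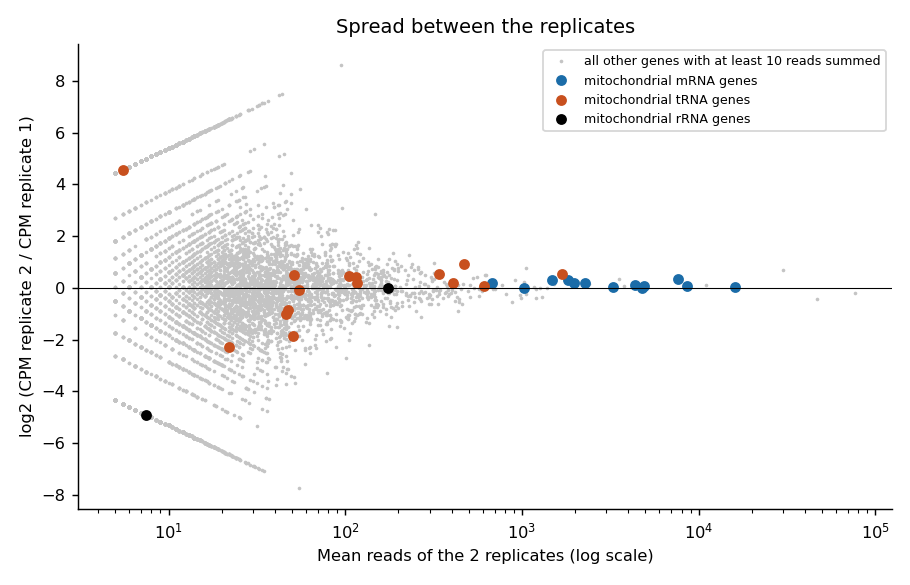
Log2 ratio of CPM between the replicates against the mean number of reads (log axis), 1 point per gene with at least 10 reads summed. The 13 mRNA genes lie from 0.01 to 0.35, while tRNA genes with few reads reach -2.28 and 4.56, within the cloud of other genes at their depth. MT-RNR1, with 15 and 0 reads, lies at -4.91.

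The nuclear genes for subunits of the same complexes were far lower than the mitochondrial ones. Of 74 listed nuclear subunit genes of complexes I, III, IV and V, 27 were identified and 23 had no read in either replicate. Over all protein-coding genes 21.9% were identified, a smaller share than here, and 11.6% had at least 10 reads in both replicates. That number was reached by 4 of the nuclear genes of complex I, 3 of complex V and none of complexes III and IV. Together the 74 genes had 647 and 759 reads against 57251 and 60528 for the 13 mitochondrial mRNA genes. The limit on the strand holds here too, since the counts of nuclear genes would also be antisense RNA under an opposite setting. For complex I, 13 of 37 nuclear genes were identified. The highest by count, NDUFB11, had 154 and 161 reads, or 92.7 and 99.6 CPM per kilobase of exon, and NDUFA1 had 71 and 24, or 345 and 120. The lowest mitochondrial gene of complex I was at 10.3 and 34.8 times the highest nuclear one in replicates 1 and 2. The levels of the mitochondrial and nuclear genes thus did not overlap for this complex.

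For the other complexes too, the levels of mitochondrial and nuclear genes did not overlap. The share identified was below the 21.9% of all protein-coding genes for complex III and above it for complexes IV and V. Of 9 nuclear genes of complex III 1 was identified, UQCRH with 2 and 2 reads, while CYC1, the highest by mean, had 20 and 0 and UQCRC1 had 12 and 0. Of 11 genes of complex IV 4 were identified, with COX4I1 at 8 and 56 reads and COX5B at 10 and 4, and of 17 genes of complex V 9 were, with ATP5PB at 39 and 83 and ATP5PF at 18 and 34. For complex III, MT-CYB was at 416 times the level of CYC1 in replicate 1, and no ratio is given for replicate 2, where the highest nuclear gene per kilobase was UQCRH with its 2 reads. The lowest mitochondrial gene was at 391 and 249.9 times the highest nuclear gene for complex IV and 248 and 129 times for complex V. Nuclear exon lengths are unions over all transcripts of a gene, which lowers their values per kilobase.

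**Figure D4:**
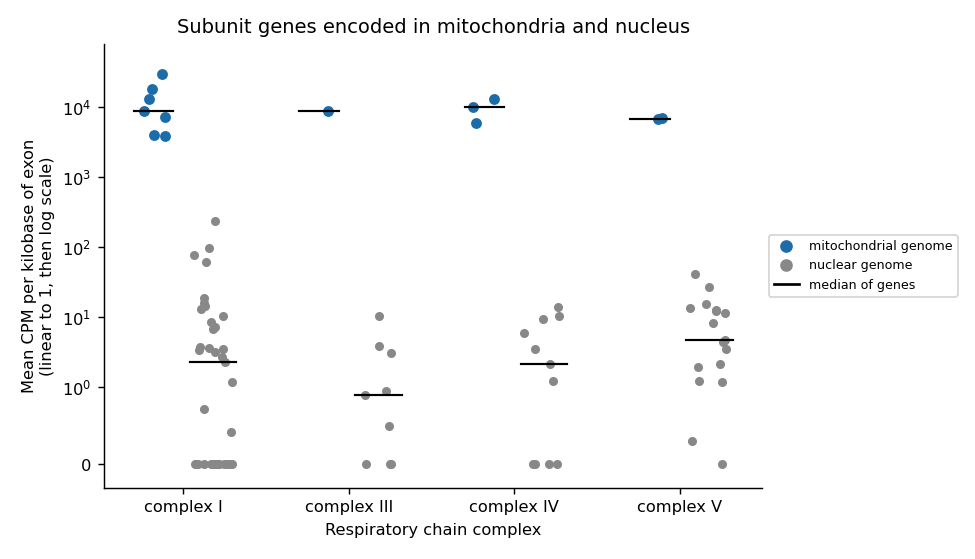
Mean CPM per kilobase of exon of subunit genes encoded in the mitochondrial genome and in the nucleus, by respiratory chain complex (axis linear to 1, then log), 1 point per gene and a line at the median. Mitochondrial genes lie from 3906 to 30041 and the highest nuclear gene, NDUFA1 of complex I, at 232.

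The nuclear genes that make and process mitochondrial RNA had few reads each. Over all protein-coding genes 21.9% were identified and 11.6% had at least 10 reads in both replicates. Of 13 genes for transcription and replication of the mitochondrial genome 4 were identified, and 1 had at least 10 reads in both. POLRMT, the mitochondrial RNA polymerase, had 40 and 4 reads and POLG, the DNA polymerase, 12 and 26. Of 17 genes for processing, stability and decay of mitochondrial RNA 10 were identified, and 3 had at least 10 reads in both. PRORP, the nuclease subunit of mitochondrial RNase P, had 36 and 17 reads and SLIRP, a partner of LRPPRC in mRNA stability, 19 and 24. ELAC2, which cuts the 3′ ends of tRNAs, had 1 and 2 reads. The highest count of either list in a replicate was the 40 reads of POLRMT, against at least 639 for every mitochondrial mRNA gene.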

How the data were processed

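Total RNA of PC3-EVs was sequenced as 2 biological replicates. For both library types, the methods name Cutadapt, SHRiMP and SAMtools for trimming and mapping to GRCh38, and the submitters' notes name HTSeq. The authors deposited unnormalised counts for each Ensembl gene, plus the numbers of reads set aside. Versions, strand setting and annotation release are not given in the sources used here. The small RNA table was not used. Lines of reads set aside entered no total.

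Counts were divided by the reads counted on genes (1 read is 2.04 and 2.10 CPM), and by gene length for levels. Of 58051 identifiers 56948 matched GENCODE release 44. Windows of 50 and 75 bases of chromosome M were searched for exact copies on either strand of the GRCh38 contigs, alternate contigs left out. Shares carry 95% Wilson intervals. The replicates were compared across all genes by exact binomial tests with Benjamini-Hochberg adjustment at 0.05, tested on simulated data. As a check for a repeated deposit of 1 library, the chi-square against counting noise was 13.2 per degree of freedom. TMM factors came from edgeR 4.0.16 in R 4.3.3, and other values from Python 3.11.15 with numpy 2.4.6, scipy 1.17.1, pandas 2.3.3 and matplotlib 3.10.9.

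Members with at least 10 reads in both replicates are named with their values, and other genes are the highest of lists by count. Members and lists were chosen with earlier results of these data known. ELAC2, LRPPRC, UQCRH and VIM-AS1 were named after their values were seen. Alternatives were other library totals, count minimums, lengths and TMM scaling, and leaving out each replicate. A further marker gene is not reported here.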

Additional observations from a re-analysis of the deposited data

How the results depend on the processing

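No paired analysis was possible because the total RNA has 1 condition.

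The share of gene counts depended on the library total. Over protein-coding counts it was 22.2% for all mitochondrial genes, 20.7% for mRNA, 1.45% for tRNA and 0.0639% for rRNA genes, and over counts without the 7SL genes and RPS29 it was 19.2%, 17.9%, 1.25% and 0.0553%, from 13.1%, 12.2%, 0.854% and 0.0377%. These totals are smaller by construction. With a read in either replicate 2 rRNA genes were identified in place of 1, and with each replicate left out from 1 to 2. The median level of the mRNA genes, 8713 CPM per kilobase, was 11890.0 over lengths without nuclear copies and from 7923 to 8756 with each replicate left out. The ratio of MT-ND6 to the other mRNA genes was 2.04 against MT-ND5 and MT-CYB only and 3.85 against the median of the 12 levels, and from 2.78 to 3.35 with each replicate left out. MT-ND6 ranked 1 under all 5 alternatives tried on the levels. In the main setting 20 of 30 members tested differed between the replicates, against 64.8% of all genes. With TMM scaling it was 24 of 30 against 65.3%, and without the 7SL genes and RPS29 15 of 30 against 64.7%. With at least 1 read summed it was 20 of 31 against 52.6%. With at least 100 reads summed, adjusted over those genes alone, it was 15 of 25 against 53.2%. No value can be had with a single replicate.

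With 2 replicates the SD is itself uncertain, and depth limits the tRNA and rRNA genes most, since 3 reads are 0.000613% and 0.000630% of the gene counts.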
